A study of Gallus gallus with 24 samples.

Results

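The subject is a set of 126 probe sets whose level was alike in the left and right ventricle of the chick embryo at embryonic day 6 (E6) and higher in the left by E10. They were chosen from 17594 probe sets whose ID starts with Gga and whose highest pool mean reached 6 on the log2 scale, out of 38535 on the array. The rule took left minus right in the normal pools, within 0.4 at E6, at least 0.3 at E8 and at least 1 at E10, and kept probe sets that differed by at most 0.7 between the banded and the normal E5 pool. These values chose the members, so the left-right differences of the normal pools are given as a description and carry no test. Of the members, 98 had a single gene symbol, for 92 different genes, and 28 had none.

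Expression was measured on one-colour oligonucleotide arrays in 12 pools of ventricle tissue, each from 6 to 12 specimens and each divided over 2 arrays. The operated groups were the left and the right ventricle at E8 after left atrial ligation, and both ventricles together at E5 after conotruncal banding. The normal groups were the left and the right ventricle at E6, E8 and E10, and both ventricles together at E4, E5 and E6. Ligation was a partial tying-off of the appendage of the left atrium, and banding a constriction of the outflow tract, both done in the egg at day 4. Each condition had 1 pool, none was labelled as sham-operated, and the labels name neither strain nor sex. Errors are therefore the SD between the 2 technical arrays of a pool and leave out the variation between embryos. In pooled tissue, fewer cells of a type and less RNA per cell cannot be told apart.

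The left ventricle arises mostly from the first heart field and the right ventricle mostly from the second heart field, and the chambers differ in wall thickness, trabeculation and load as the heart matures. The T-box transcription factor TBX5 is a known marker and regulator of the left side of the ventricle. Ligation of the left atrium is an established way to reduce the load of the left ventricle in the chick, since blood is diverted to the right.

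Array medians lay between 4.02 and 4.14. The muscle content of the tissue was read from sarcomere genes, of which all 21 measured lay above the filter level of 4.09. The list as a whole was not used to tell ventricle from atrium. The ventricular factor IRX4 stood between 13.89 and 14.37 in all 12 pools. The pools were spread along the second principal component of the 17594 probe sets. The left and right ligated pools lay at -30.2 and -44.6 and the left and right E6 pools at -4.05 and -34.5, whereas the E6 pool of both ventricles lay at 13.2. The left and right pools lay at 13.0 and -12.2 at normal E8 and at 42.3 and 9.79 at E10, and the E4 pool at 24.7. The left lay above the right in each pair, so this component also went with side. At 22 of the 126 members the mean of the left and right E6 pools lay at least 1 below the E6 pool of both, and at 0 members it lay 1 above. Over all 17594 probe sets the share at least 1 below was 1.73% and the share at least 1 above 1.55%. Counts of members by course are given from these E6 single-ventricle pools and from the E6 pool of both, and some also without the 22 members. Courses of single genes rest on the single-ventricle pools unless the other is named.

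At E6 the members' left minus right difference had a median of 0.06, and it was 0.69 at E8 and 1.23 at E10. The range at E10 was 1.01 to 3.49, with the 2 widest set against right levels below the filter level. Of all 17594 probe sets, 2.48% were higher in the left by at least 1 at E10, and 302 of those 436 were also higher in the left by at least 0.3 at E8. The duplicate arrays of the left pool lay above both of the right pool at 126 members at E10 and at 125 at E8. The limits of the rule on these same pools favour such a separation, so nothing is read from these 2 counts. The difference was wider at E10 than at E8 in 116 members, and in 32 it had already reached 1 at E8. The median SD between duplicate arrays over the members was 0.069 in the left E10 pool and 0.150 in the right E10 pool. Just inside the E10 limit lay TBC1D8 at 1.01. Just outside it lay a probe set with no symbol at 0.997, and next TMEM35A at 0.994. The same limits with left and right exchanged chose 160 probe sets.

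**Figure D1:**
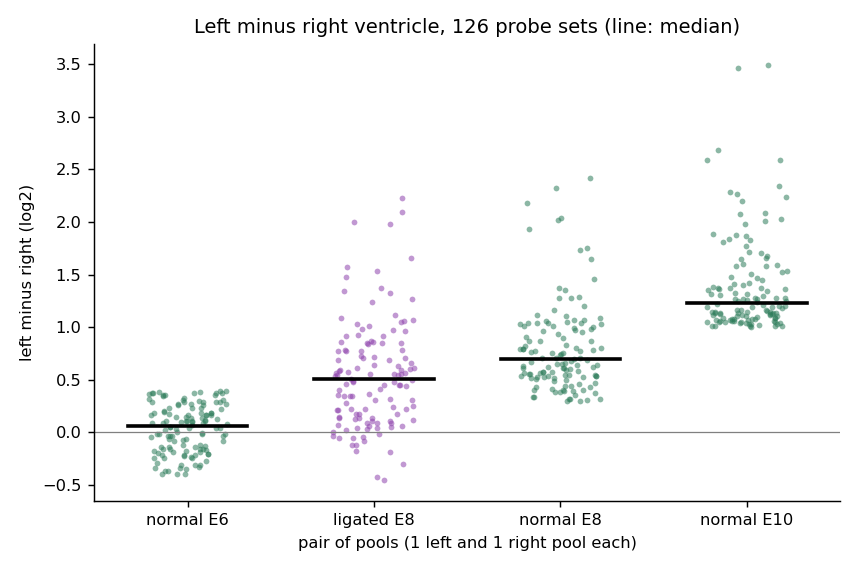
Each point is 1 of the 126 probe sets, and the vertical axis is left minus right on the log2 scale for the pairs of pools at E6, ligated E8, normal E8 and E10; black lines are medians. The medians were 0.06 at E6, 0.50 in the ligated pair, 0.69 at normal E8 and 1.23 at E10; the normal pairs were used to choose the probe sets and the ligated pair was not.

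Whether the left ventricle went up or the right went down was read from E10 minus E6 in each ventricle, with 0.5 on the log2 scale as the size that counted. No single course described the set. The left was higher at E10 and the right was not lower in 65 members, in 32 of which the right was higher as well (6.69% of all 17594 probe sets) and in 33 of which it stayed within 0.5 (7.01%). The right was lower at E10 and the left was not higher in 48 members, in 13 of which the left was lower as well (7.69%) and in 35 of which it stayed within 0.5 (10.1%). In 11 the left was higher and the right lower (0.83%), and in 2 neither moved by 0.5 (54.7%). Over all 17594 probe sets the left was higher in 14.5% and the right lower in 18.6%, where 76 and 59 of the 126 members were; the rule used these pools, so nothing is read from this contrast. The medians over the members were 0.82 in the left against -0.31 in the right.

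The balance turned with the E6 pool taken as the starting level. Against the E6 pool of both ventricles, the right was lower at E10 in 86 members and the left higher in 48, and the group with the right lower and the left not higher grew to 78 while the group with the left higher and the right not lower shrank to 40. The median changes were then 0.21 in the left against -1.05 in the right. The same course was found from both starting levels in 76 of the 126. Without the 22 members low in the single-ventricle E6 pools, the counts from those pools were 46 with the left higher and the right not lower and 47 with the right lower and the left not higher. The part of the kind of pool in this was not tested.

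**Figure D2:**
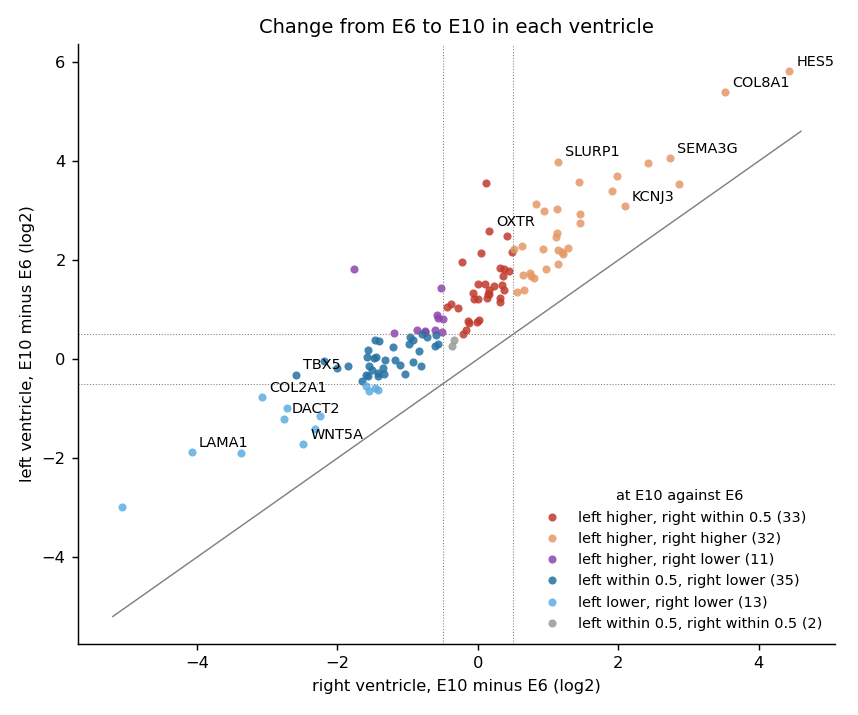
For each of the 126 probe sets, the horizontal axis is E10 minus E6 in the right ventricle and the vertical axis is E10 minus E6 in the left, both on the log2 scale; the solid line marks equal change and dotted lines mark 0.5. All points lie above the line, as the rule requires, and colours separate the 65 members with a higher left and no lower right from the 48 with a lower right and no higher left.

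The transcription factors were led by TBX5. In the left ventricle TBX5 stood at 7.07, 8.03 and 6.76 at E6, E8 and E10, against 7.15, 5.71 and 4.56 in the right. The left E10 level lay close to that of the left E6 pool, while the right E10 level was lower by 2.59, so that the left exceeded the right 4.58-fold at E10. SDs between duplicate arrays were at most 0.12 in these and the ligated pools. In the pools of both ventricles TBX5 stood at 6.83, 7.12 and 7.37 at E4, E5 and E6. A further TBX5 probe set was no member because it was already higher in the left by 0.67 at E6; it stood at 6.69 in the left against 2.41 in the right at E10, below the filter level. TBX20, a related factor that was no member, ran the other way, with 10.54 in the left against 11.42 in the right at E10.

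CITED2, a transcriptional co-activator needed for heart septation in the mouse, stood at 7.31, 8.39 and 9.47 in the left and at 6.96, 7.71 and 8.16 in the right at E6, E8 and E10. Its level in the E6 pool of both ventricles was 9.11, above either single-ventricle pool of that day. From that pool the left E10 level differed by less than 0.5. TBX5 and CITED2 were the 2 members in a list of 22 chamber transcription factors, of which 20 were on the array and 17 above the filter level. In that list the median left minus right was 0.08 at E10, and HAND1, HEY1 and MEIS2 were non-members with a higher left by 0.75, 0.71 and 0.78. In the same list TBX20 and GATA4 were lower in the left by 0.88 and 0.64.

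HES5, a Notch-responsive repressor, lay below the filter level in every pool up to E6, with 2.41 in the left against 2.38 in the right at E6. It stood at 8.22 ± 0.10 in the left against 6.81 ± 0.05 in the right at E10 (SD of 2 arrays). The gap was already 1.94 at E8. A second HES5 probe set stayed below the limit on level, with 5.28 in the left against 3.02 in the right at E10. LEF1, a transcription factor through which Wnt signals can act on target genes, was held by 2 members. The brighter one was level in the left, at 7.55, 7.71 and 7.50, but stood at 7.67, 7.30 and 5.47 in the right at E6, E8 and E10. The dimmer one stood at 4.83 in the left against 3.46 in the right at E10.

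Other genes of Wnt signalling belong to no list fixed for this work, and WNT5A, FZD8 and BCL9L were named after their values were seen. WNT5A, a secreted ligand, was lower with age in both ventricles and more so in the right, at 11.28, 10.50 and 9.56 in the left and 10.90, 9.73 and 8.42 in the right at E6, E8 and E10. Both further WNT5A probe sets above the limit on level were higher in the left at E10, with 9.95 and 8.94 in the left and 9.19 and 7.70 in the right. DACT2, an intracellular regulator of Wnt and TGF-beta signals, stood at 8.17 in the left against 6.30 in the right at E10. FZD8, a Wnt receptor, moved the opposite way with age, to 9.95 in the left against 8.88 in the right at E10, compared with 7.83 and 7.67 at E6. BCL9L, a co-activator of beta-catenin, stood at 7.78 in the left against 6.48 in the right at E10. WNT5A and DACT2 were lower at E10 than at E6 in both ventricles, FZD8 was higher in both, and BCL9L was higher in the left with the right within 0.5.

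The G protein-coupled receptors OXTR and ADRA2C were higher in the left at E10 than at E6 while the right stayed within 0.5. OXTR, the oxytocin receptor, stood at 3.93, 6.34 and 6.52 in the left ventricle at E6, E8 and E10, and at 3.77, 3.93 and 3.93 in the right. The SD between arrays was 0.53 in the left E8 pool and 0.42 in the left E10 pool, the right pools lay below the filter level throughout, and 3 further OXTR probe sets stayed below the limit on level. ADRA2C, an alpha-2 adrenergic receptor, stood at 5.35, 6.70 and 7.84 in the left and 5.18, 5.72 and 5.60 in the right. KCNJ3, a subunit of the acetylcholine-activated potassium channel, was higher with age in both chambers, at 6.28 in the left against 5.02 ± 0.52 in the right at E10, compared with 3.19 and 2.93 at E6. KCNV1, a modifier subunit of voltage-gated potassium channels, stood at 6.40 in the left against 5.13 in the right at E10.

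GRK3, a kinase that desensitises adrenergic and other receptors, was held by 2 members from separate sequence clusters. The dimmer one stood at 6.10 in the left against 2.63 in the right at E10, the right below the filter level, and its arrays differed by an SD of 0.64 in the right E6 pool. The brighter one stood at 10.39 in the left against 8.97 in the right at E10, and at 9.57 and 9.47 at E6. SLURP1, a small secreted protein of the Ly6 family, stood at 2.91, 7.84 and 6.90 in the left and 3.07, 5.83 and 4.22 in the right at E6, E8 and E10, with SDs of 0.62 and 0.68 in the 2 E10 pools. RASSF5, an effector of Ras and Rap proteins, was also held by 2 members, at 8.55 and 10.28 in the left and 6.85 and 9.15 in the right at E10.

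**Figure D3:**
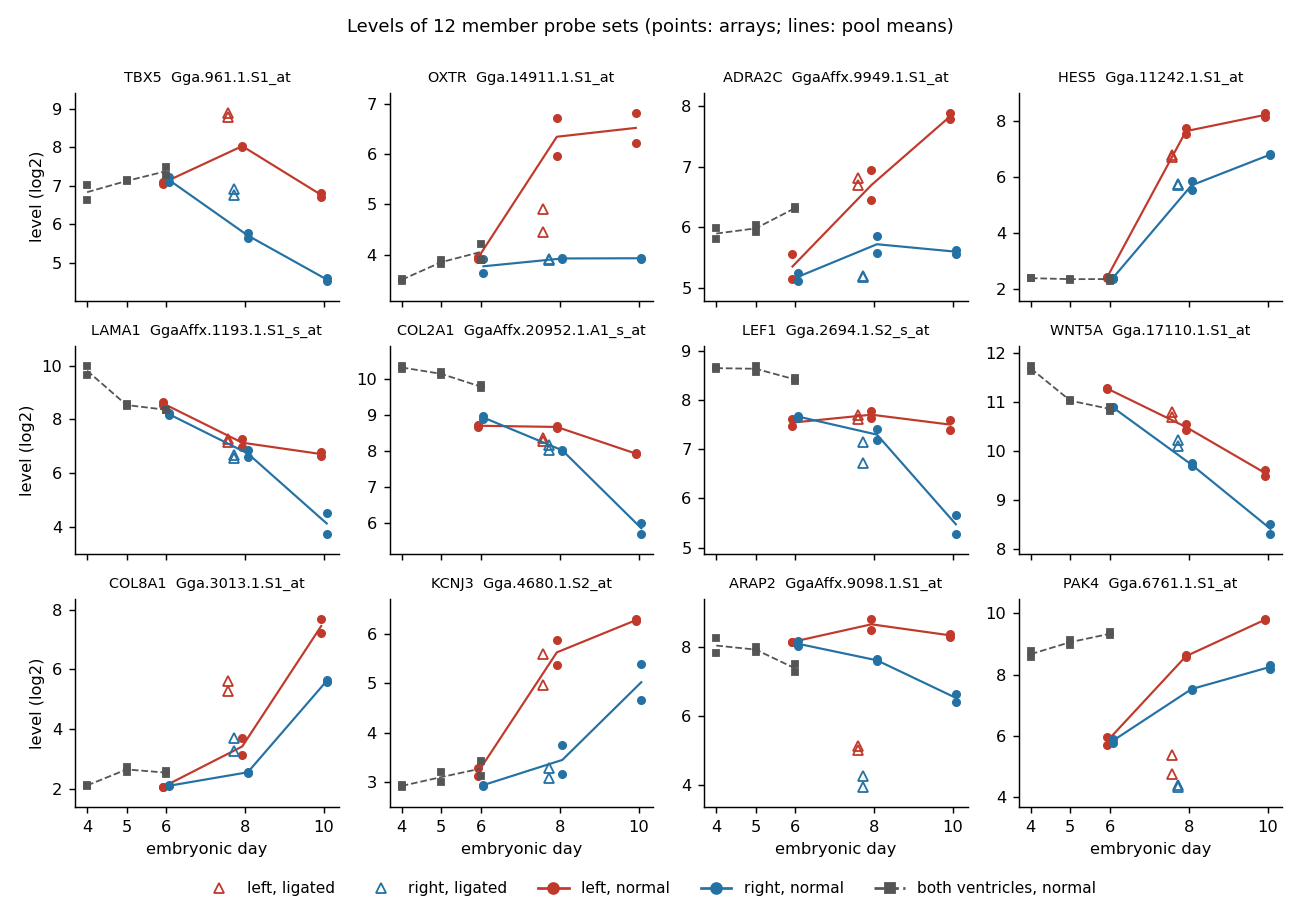
Each panel shows 1 member probe set, with embryonic day on the horizontal axis and the log2 level on the vertical axis; points are single arrays, lines join pool means, triangles are the ligated E8 pools and squares the pools of both ventricles. The right is lower at E10 than at E6 for TBX5, LEF1, COL2A1 and LAMA1, and the left is higher for OXTR, ADRA2C and HES5. For COL2A1 and LAMA1 the left is lower as well, and for HES5 the right is higher as well. The ligated levels of ARAP2 and PAK4 lie under the normal E8 levels.

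Members of the extracellular matrix, grouped after their values were seen, appeared with both courses. LAMA1, the alpha chain of an embryonic laminin, stood at 8.58, 7.13 and 6.70 in the left and 8.19, 6.73 and 4.12 ± 0.54 in the right at E6, E8 and E10. COL2A1, the collagen of cartilage that is also made in embryonic valves, stood at 7.93 in the left against 5.86 in the right at E10, compared with 8.70 and 8.93 at E6. The brightest further COL2A1 probe set gave 10.09 in the left against 9.29 in the right at E10. COL8A1, a short-chain collagen of vessels and valves, lay below the filter level at E6, at 2.06 in the left against 2.10 in the right, and stood at 7.46 ± 0.33 in the left against 5.62 ± 0.04 in the right at E10 (SD of 2 arrays). THBS4, a matrix glycoprotein of heart and tendon, stood at 12.24 in the left against 11.09 in the right at E10, compared with 10.42 and 10.13 at E6. In the list of 13 matrix and valve genes, none was a member, and the median left minus right at E10 was -0.13.

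Members known from vessels were CD34, PCDH12 and SEMA3G, grouped after their values were seen. SEMA3G, a semaphorin of arterial endothelium, stood at 2.22, 4.66 and 6.27 in the left and 1.95, 4.08 and 4.68 in the right at E6, E8 and E10, with SDs of 0.95 and 0.57 in the left and right E10 pools. A further SEMA3G probe set above the limit on level stood at 6.89 in the left against 5.98 in the right at E10. PCDH12, an endothelial protocadherin, stood at 7.94 in the left against 6.88 in the right at E10, and CD34, a surface protein of endothelium and progenitors, at 8.73 in the left against 7.71 in the right. Of the 11 endothelial markers on the list, 9 were on the array, all above the filter level, and 0 were members. Their summed level, on the log2 scale, was 14.46 in the left against 14.43 in the right at E10, 14.14 and 14.26 in the ligated pair and 14.26 and 14.48 at normal E8. At E10, 2 of the 9 were higher in the left by at least 0.5 and 1 was lower. The part of endothelial content in the members was not tested.

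Markers of other cell types were also compared. The summed epicardial markers stood at 13.04 in the left against 13.29 in the right at E10, with 3 of 5 on the array. The smooth muscle markers above the filter level, TAGLN and MYH11, summed to 10.11 in the left against 10.44 in the right at E10. TAGLN, which led that sum, had 10.07 in the left against 10.28 in the right, and the smooth muscle myosin MYH11 4.87 against 7.17. ACTA2 stayed below the filter level. The 2 red cell markers on the array summed to 15.38 in the left against 15.42 in the right. HBAD, which led that sum, had 15.24 in the left against 15.34 in the right, while HBZ had 11.90 against 11.23. The nerve marker TH stood at 7.31 in the left against 10.29 in the right, and SOX10 stayed below the filter level. Of the 4 macrophage markers, PTPRC lay below the filter level. The other 3 summed to 10.97 in the left against 10.76 in the right, a sum led by CD74, while CSF1R and SPI1 were lower in the left by 0.38 and 0.83 and the median left minus right was -0.38. None of these lists held a member, and their part in the result was not tested.

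Other genes that the naming rule chose at E10 were WSCD2, CPXM2, ASTN1, NPTX2, RNF208, STC2, ARAP2, SUSD1, SENP1, DPF2, TNFRSF10B, PROSER2 and SH3TC2, with a left minus right between 1.59 and 2.34. STC2, a secreted glycoprotein hormone, was held by 2 members of the same sequence cluster, at 7.06 and 8.23 in the left and 5.23 and 7.04 in the right at E10. NPTX2, a secreted pentraxin best known from synapses, stood at 8.05 in the left against 6.04 in the right at E10, compared with 4.47 and 4.61 at E6. Its 2 further probe sets were higher in the right at E6, by 0.61 and 0.49, and higher in the left at E10, with 10.87 and 9.74 in the left and 9.91 and 8.54 in the right. One probe set with no symbol stood at 7.27 in the left against 3.78 in the right at E10, where the right lay below the filter level.

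Other probe sets of the same genes were also read, in the pools that had chosen those genes. Of the 162 that were not members, 65 from 41 genes reached the level of 6. Their median left minus right at E10 was 0.71, and 62 of the 65 were above 0, 53 were at least 0.3 and 13 at least 1. Over all 17594 probe sets the shares were 57.5%, 22.7% and 2.48%. These probe sets were hybridised with the same RNA and are no further replicates of the pools, and they failed at least one limit of the rule. Their genes were chosen for a higher left in the same E10 pools, so nothing is read from these shares against the background. TIMM17B, a subunit of the mitochondrial import machinery, was a gene whose probe sets disagreed: its member stood at 6.35 in the left against 5.16 in the right at E10, and its brightest other probe set at 14.18 in the left against 14.04 in the right.

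The ligated day 8 pair was the one pair of ventricle pools that the left-right limits did not use. In it the members' left minus right had a median of 0.50, with a range of -0.45 to 2.23. The left was higher by at least 0.3 in 82 of 126 members and lower by at least 0.3 in 2, where 11.7% and 10.4% of all 17594 probe sets were. With the further demand that the duplicate arrays did not overlap, 77 members were higher, against 11.3% of all. Without the 22 members low in the single-ventricle E6 pools, 67 of 104 were higher by at least 0.3. At least 1 was reached by 20 members, where 1.04% of all did, and 0 members were lower by at least 1, where 0.875% were. The left was higher by any amount in 112 members, where 49.2% of all were. For the 160 probe sets of the exchanged rule, the median in the ligated pair was -0.23. With 1 pool on each side, none of this has a test.

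**Figure D4:**
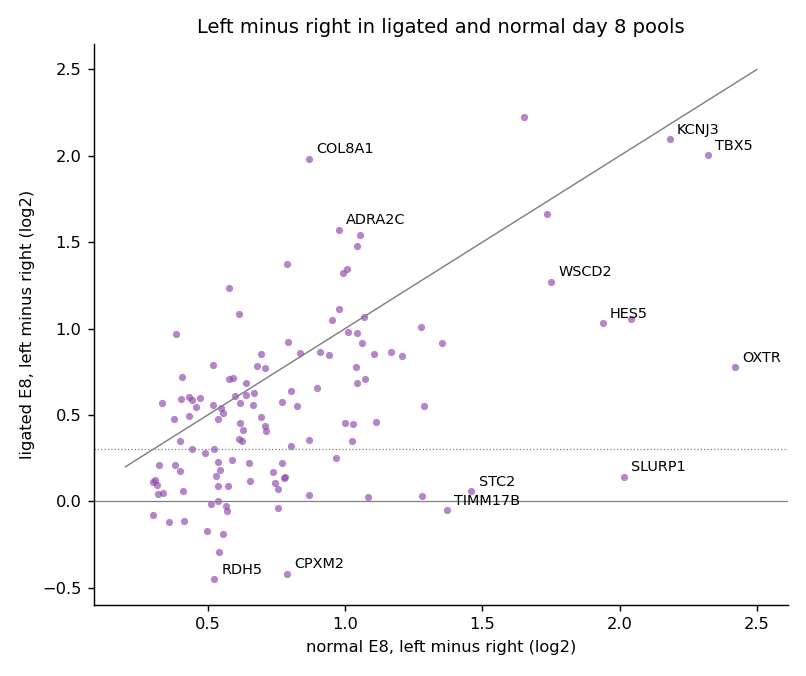
Each point is 1 of the 126 probe sets; the horizontal axis is left minus right in the normal E8 pools, used by the rule, and the vertical axis is left minus right in the ligated E8 pools, both on the log2 scale. The diagonal marks equal differences and the dotted line 0.3; 82 points lie at or above 0.3 in the ligated pair, with KCNJ3, TBX5 and COL8A1 near 2 and RDH5 and CPXM2 below 0.

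By course, a ligated left higher by at least 0.3 was seen in 19 of the 33 members with a higher left and a right within 0.5, and in 25 of the 32 with both higher. It was seen in 22 of the 35 with a left within 0.5 and a lower right, and in 10 of the 13 with both lower. These courses were read from the single-ventricle E6 pools. From the E6 pool of both, 78 members had a lower right and no higher left. Of these, 28 with a left within 0.5 and 17 with both lower had this ligated difference. A higher left and no lower right was seen in 40, of which 14 with a right within 0.5 and 17 with both higher had it. The ligated difference was smaller than the normal E8 difference in 93 members and wider in 33, but the normal E8 difference had been used to choose them, so nothing is read from that count.

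The naming rule took KCNJ3, TBX5 and COL8A1 for their ligated differences. The right ligated levels of KCNJ3 and COL8A1 lay below the filter level, so the sizes of their differences are not firm and give no order against TBX5. KCNJ3 stood at 5.27 in the left against 3.18 in the right ligated pool. TBX5 stood at 8.84 in the left against 6.84 in the right ligated pool, compared with 8.03 and 5.71 in the normal E8 pools. Both ligated levels of TBX5 thus lay above the normal level of the same ventricle, and the left exceeded the right 4.01-fold.

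COL8A1 stood at 5.45 in the left against 3.47 in the right ligated pool, compared with 3.42 and 2.55 in the normal E8 pools. RDH5, CPXM2 and SLC16A9 had the lowest ligated differences among members with a symbol. RDH5, a retinol dehydrogenase, was lower in the left by 0.45, CPXM2, a carboxypeptidase-like secreted protein, by 0.42, and SLC16A9, a transporter of the monocarboxylate family, by 0.19.

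SLURP1 and STC2 differed widely at E10 and little in the ligated pair. SLURP1 stood at 6.44 in the left against 6.30 in the right ligated pool, and STC2 at 7.23 in the left against 7.17 in the right. OXTR, at 4.68 in the left against 3.91 in the right, had a difference above the members' median, compared with 6.34 and 3.93 in the normal E8 pools.

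Within each ventricle the ligated pool was set against the normal E8 pool. The rule required a higher left in the normal E8 pools, which favours a lower left and a higher right in this difference, so nothing is read from these values against the background. The members' median was -0.17 in the left against 0.06 in the right, and over all 17594 probe sets it was 0.01 and -0.00. In the 160 probe sets of the exchanged rule it was 0.09 in the left against -0.49 in the right. In the left, 10 members were lower in the ligated pool by at least 1 and 2 were higher, where 1.71% and 2.38% of all probe sets were. In the right, 6 were lower and 8 were higher, where 2.14% and 1.74% were.

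Of the members with the widest ligated minus normal differences, PAK4 was also low in the single-ventricle pools of E6 and ARAP2 was not. PAK4, a kinase that acts on the cytoskeleton, was held by 2 members. The brighter one stood at 5.08 in the left against 4.37 in the right ligated pool, compared with 8.61 and 7.53 in the normal E8 pools, but it was also low in the E6 single-ventricle pools, at 5.83 in the left against 5.84 in the right, compared with 9.34 in the E6 pool of both. ARAP2 stood at 5.07 in the left against 4.10 in the right ligated pool, compared with 8.65 and 7.61 in the normal E8 pools, and was not low in the E6 single-ventricle pools, at 8.14 and 8.09.

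In the 22 members low in the E6 single-ventricle pools, the median ligated minus normal difference was -0.51 in the left against -0.52 in the right. In the other 104 it was -0.11 in the left against 0.11 in the right, opposite signs that the choice of members on the normal E8 pools favours. What the single-ventricle E6 pools and the ligated pools share was not tested.

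**Figure D5:**
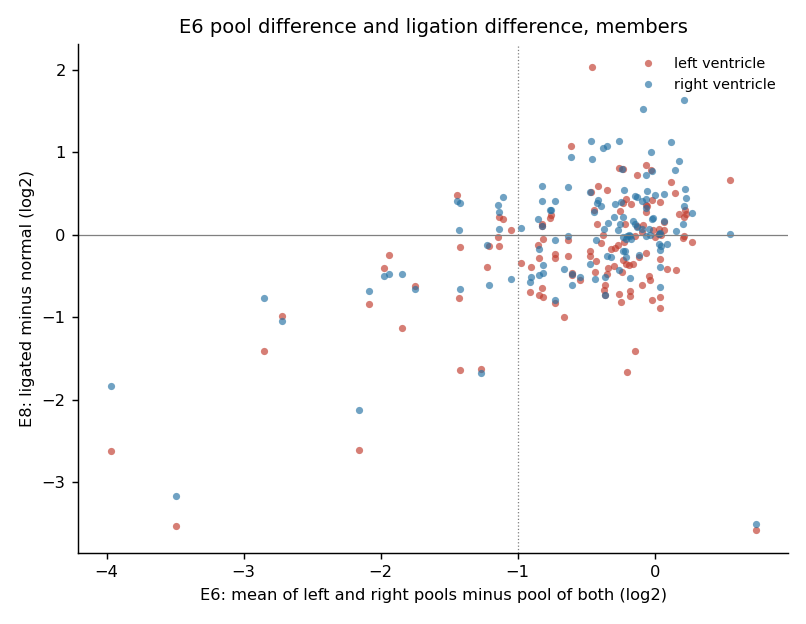
For each of the 126 probe sets, the horizontal axis is the mean of the left and right E6 pools minus the E6 pool of both ventricles and the vertical axis is ligated minus normal at E8, for the left and for the right, all on the log2 scale. Left of the dotted line at -1 lie the 22 members low in the single-ventricle pools, whose median ligation difference was -0.51 in the left against -0.52 in the right.

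Over both ventricles together, limma called no member different between ligated and normal pools after Benjamini-Hochberg adjustment over 20335 probe sets. It called 2 of all probe sets, or 0.00984%, and 11 members had an unadjusted p under 0.05, 6 of them higher and 5 lower, where 2791 of all 20335 had one, 1451 higher and 1340 lower. In the day 8 pools alone limma called 0 members and 0 of all, with 52 members and 4765 of all at an unadjusted p under 0.05. That fit had fewer residual degrees of freedom than the others and used the normal E8 pools that chose the members. Nothing is read from its counts against the background. Over all 12 pools ARAP2 came closest of the members in the ligation fit, at -3.54 ± 0.44 (SE) with a limma adjusted p of 0.149. The side by ligation term set left minus right in the ligated pair against its mean over the normal E6, E8 and E10 pairs. It called 0 members and 0.00984% of all probe sets. An unadjusted p under 0.05 was held by 0 members and by 281 of all 20335. The lone pool of each condition was assumed to vary like the others in these fits. The 2 fits of all 12 pools had 4 and 3 residual degrees of freedom and held left minus right constant over the normal stages. The members were chosen for a difference that grew with stage, which widened their residuals. That choice favoured fewer calls, so nothing is read from the member counts of those fits against the background.

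The trend with age was fitted on the mean level of the ventricles at E4, E5, E6, E8 and E10. At E4 and E5 this level came from pools of both ventricles, and at E8 and E10 from single-ventricle pools. Only E6 had pools of both kinds. The kind of pool thus changed along with age, and neither the slopes nor their p-values can separate it from age. The E6, E8 and E10 pools also chose the members, which had to move in at least 1 ventricle and reach a level of 6, so the counts are a description and nothing is read from them against the background. With limma and an adjusted p under 0.05, 37 of 126 members were called, 17 of which rose and 20 of which fell, where 10.6% of all 20335 probe sets were called, 4.9% rising and 5.65% falling. Of the 17 that rose, 14 belonged to the members higher at E10 than at E6 in both ventricles. The 20 that fell were split into 10 with both ventricles lower and 10 with a lower right and a left within 0.5. Without the E8 stage or without the E10 stage, limma called 0 members and 1 and 0 of all 20335 probe sets. At an unadjusted p under 0.05 stood 65 and 51 members in those fits, and 4564 and 4183 of all.

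HES5 rose by 1.01 ± 0.17 per day (SE, limma adjusted p = 0.0303), a slope of no firm size because the pools up to E6 lay below the filter level. The same limit holds for KCNV1 and KCNJ3. KCNV1 rose by 0.51 ± 0.05 and KCNJ3 by 0.48 ± 0.05 per day, with limma adjusted p of 0.0134 and 0.0157. LAMA1 fell by 0.69 ± 0.05 per day and DACT2 by 0.48 ± 0.02, with limma adjusted p of 0.0105 and 0.0080.

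COL2A1, SUSD1, SENP1, WNT5A, both LEF1 members and both STC2 members also fell. OXTR, WSCD2, CPXM2, SEMA3G, PROSER2, SH3TC2, FZD8 and THBS4 also rose. TBX5, ADRA2C, GRK3, SLURP1 and NPTX2 were not called, though their left-right differences at E10 were among the widest.

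Before the ventricles were taken apart, some members were higher with age and fewer were lower. In the pools of both ventricles E6 exceeded E4 by at least 0.5 in 33 members and lay at least 0.5 below it in 15, where 10.6% and 6.27% of all probe sets did. The median was 0.15 over the members and -0.01 over all. Of the 160 probe sets of the exchanged rule, 49 were higher and 7 lower by at least 0.5, with a median of 0.21. The early rise was thus not particular to the members. Banded minus normal at E5, which the rule limited, had a median of 0.03 and ran between -0.56 and 0.63.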

How the data were processed

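The deposited table holds 38535 probe sets on 24 arrays as log2 values; the submitters' processing notes name GCRMA and MAS5, without saying which of them made these values or in what version. The 2 arrays of a pool were averaged, and the SD between them is technical. Gene symbols came from GEO's platform annotation, which gave 27178 probe sets 1 symbol, 177 several and 11180 none; 26863 matched RefSeq by gene ID. The members and gene lists were chosen with earlier results of these data known.

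limma 3.58.1 in R 4.3.3 was fitted on the 20335 probe sets above the 50th percentile, 4.09, without 96 control probe sets, and p-values were adjusted with Benjamini-Hochberg over all of them. The fits were also run on simulated data with equal noise in every pool and no left-right difference that grew with stage. That simulation thus does not cover the widened residuals of the members. Named genes were the 25 members with 1 symbol and the widest E10 difference, members in a gene list, and the 3 with the widest ligated difference each way; HES5, WNT5A, FZD8, BCL9L, PAK4, CD34, PCDH12, THBS4, KCNV1, TIMM17B and second probe sets were named after their values were seen. Alternatives were single arrays, quantile normalization, median centring, a floor of 5, other filters and limits, and stages left out. Array numbers did not pair pools: correlations of same-numbered arrays over 66 pairs of pools ran from -0.12 to 0.09.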

Additional observations from a re-analysis of the deposited data

Results flagged for a closer look

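In 3 of the 29 members named by rule, the ligated pool lay below the normal E8 pool on every array in the left and above it on every array in the right. The difference between the ventricles was not tested, since each arm is 2 arrays of 1 pool. For SLURP1 ligated minus normal was -1.41 in the left against 0.47 in the right, which differ by -1.88. For TNFRSF10B, a death receptor, it was -0.45 in the left against 0.80 in the right, which differ by -1.25. For COL2A1 it was -0.35 in the left against 0.08 in the right, which differ by -0.43. Among all 126 members, 10 ran this way and 1 the other way, where 4.45% and 5.07% of all 17594 probe sets did; the normal E8 pools were used to choose the members, so nothing is read from that count.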

How the results depend on the processing

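Of 125 comparisons of a result with an alternative, 96 stayed within limits, 29 moved and 0 reversed. A count stayed within limits if it was within 1.5-fold of the main one, and the median ligated difference if it moved by less than 0.057. The latter is the SD of that median between single arrays. The limit on counts is wide: 108, 148 and 180 members against 126 all stayed within it. Only the median ligated difference could be labelled as reversed. A count could only stay or move, so the turned balance of courses from the E6 pool of both counts as moved. The 96 include comparisons of 0 with 0 called members in the fits for ligation and for the side by ligation term. They also include the comparisons with the array number as a replicate block, which could not differ. With 1 array of each pool, the number of members ran from 108 to 148, and 80 and 90 of these were among the 126. The median ligated difference was then 0.42 to 0.48, and the count at least 0.3 was 67 to 91. The courses were 50 to 68 with the left higher and the right not lower, and 11 to 18 with left higher and right lower. Members with the right lower and the left not higher numbered 46 to 61. The median ligated difference was 0.43 with median centring and 0.36 with a floor of 5. Members with left higher and right lower numbered 23 of the 180 members that median centring gives, and, of the 126, 21 with a change of 0.3 and 1 with a change of 1. Median centring moved left minus right at E10 by 0.096 over all probe sets. With E6 within 0.2 there were 68 members, 43 of them at least 0.3 higher in the left ligated pool, and the courses were 35, 6 and 27. With E10 at least 1.5 there were 34 members, 24 at least 0.3, a median of 0.71 and courses of 15, 4 and 15. From the E6 pool of both, members with the left higher and the right not lower numbered 40, and those with the right lower and the left not higher 78. Members that rose with age numbered 2 without a filter, where 312 of all 38439 probe sets did. With the 70th percentile filter, which tested 60 of the 126 members, 7 rose, where 857 of all 13117 did. With a floor of 5, 11 rose, where 787 of all 19221 did. Without E4, 6 rose, where 308 of all 20335 did. Members that fell numbered 13 without a filter, where 448 of all 38439 did. Without E8 or without E10, 0 members rose and 0 fell, with 1 and 0 of all 20335 called. In the main fit 997 of all 20335 rose and 1149 fell, so calls over all probe sets moved as well. With 1 array, 16 to 17 members rose and 17 to 19 fell, where 752 to 803 and 874 to 981 of all probe sets did. Taking out the array number as a replicate block left every pool mean unchanged. Its counts therefore had to equal the main ones and say nothing on stability. They were 17 that rose, 20 that fell, and 0 called for ligation or for the side by ligation term. Chosen after seeing the data was the weighting of the E6 pools. With it 19 members rose and 22 fell, where 1118 and 1288 of all 20335 probe sets did. Also chosen then was leaving out the 22 members low in the E6 single-ventricle pools, which left 67 of 104 at least 0.3 and a median of 0.52. Every condition is 1 pool, so no alternative covers the spread between embryos, and levels below the filter level, left or right, give no firm size.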
